A study of Mus musculus with 12 samples.

Results

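Glucose uptake and glycolysis were followed through 10 genes: the glucose transporters Slc2a1 and Slc2a3, the hexokinases Hk1 and Hk2, the phosphofructokinase subunits Pfkl and Pfkp, and the later enzymes Aldoa, Pgk1, Pkm and Ldha. They were found by gene symbol among the 19937 genes that the array annotation names, with Pkm taken up from its former symbol Pkm2. Each gene was represented by the probe set with the highest mean over the 12 arrays, a probe set being a group of array probes summarised to 1 value. Of these genes, 9 lay above the filter on low signal and were tested among 13180 genes, and Slc2a3 lay below it.

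All RNA came from clone #483 of a mouse acute T cell leukaemia (T-ALL), of strain C57BL6, so no group holds more than this clone. They were given 4EGI-1, an inhibitor of the binding between the cap-binding protein eIF4E and its scaffold eIF4G, at 100 µM for 2 h, or served as controls, which the sample labels call untreated and the treatment text describes as DMSO, the solvent. From both kinds of culture, RNA of the cytoplasmic fraction (named "Total" in the sample titles) and RNA pooled from the polysome fractions of a sucrose gradient were put on arrays. This gave 4 groups of 3 arrays each: cytoplasmic control, cytoplasmic 4EGI-1, polysomal control and polysomal 4EGI-1. Replicates are called biological in the design text, and nothing else states how separate the cultures were, so p-values rest on array-to-array spread, which may be technical.

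Values are log2 intensities, on which a difference of 1 is a doubling, and each array was brought to a common scale. A difference is therefore relative to the other RNAs of the same fraction, and a change in total polysomal RNA was not measured. Array medians lay between 6.40 and 6.56. The labelled cell type was checked with 16 T cell markers, of which 13 were named and all 13 lay above the filter, from 6.61 for Cd5 to 12.1 for Ptprc, with medians of 10.4, 10.3, 11.1 and 10.7 in the 4 groups in the order given above. Group medians of the named B cell (5 genes), myeloid (6), erythroid (3) and stromal or endothelial (6) markers lay between 5.80 and 7.16, with 3, 3, 3 and 4 of them above the filter. The highest of each list were Pax5 (6.67), Itgam (6.74), Epor (6.98) and Pecam1 (8.48), each above Cd5. Over all tested genes the cytoplasmic arrays were the noisier ones. Their median standard deviation was 0.133 in control and 0.121 in 4EGI-1, against 0.0745 and 0.0761 in polysomal RNA. For the tested genes of this report the order was another. Their median was 0.0585 in cytoplasmic control and 0.0671 in polysomal control, against 0.207 in cytoplasmic and 0.121 in polysomal 4EGI-1.

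Glucose enters T cells through facilitative transporters, is trapped as glucose-6-phosphate by hexokinase, and is committed to glycolysis by phosphofructokinase. Aldolase, phosphoglycerate kinase and pyruvate kinase then carry the carbon to pyruvate, and lactate dehydrogenase reduces pyruvate to lactate, which regenerates the NAD+ that glycolysis needs. Activated and leukaemic T cells are known for a high rate of this pathway, driven by growth factor signalling and by the transcription factors Myc and Hif1a.

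Under 4EGI-1, 3 of the 9 tested genes passed in at least 1 fraction, and they did not share a direction. Hk2 rose in polysomal RNA 1.70-fold and Pfkl fell there 1.45-fold, while Pfkp fell 1.40-fold in cytoplasmic RNA, where Pfkl fell as well. In polysomal RNA 1 of the 9 tested genes rose and 1 fell, where 25.2% of all tested genes passed (13% rose and 12.1% fell). In cytoplasmic RNA none rose and 2 fell (Pfkl and Pfkp), where 17.8% of all tested genes passed (10.1% rose and 7.79% fell). The difference between the polysomal and the cytoplasmic effect, tested as an interaction, passed in 1 gene, Hk2, where 2.92% of all genes passed (2.31% in the positive direction and 0.607% in the negative). The median log2 change of the 9 genes was -0.09 in cytoplasmic and -0.11 in polysomal RNA, beside -0.03 for all genes in both. Because a second probe set of Hk1, described below, rose in polysomal RNA as well, the counts there become 2 risen and 1 fallen, and 2 in the interaction, when probe sets that list a RefSeq mRNA come first, a choice made after seeing the data. The 2 treatment comparisons share no arrays with each other, but their tests come from 1 fit with a common spread per gene. The interaction and the comparisons of fractions reuse arrays of both.

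**Figure D1:**
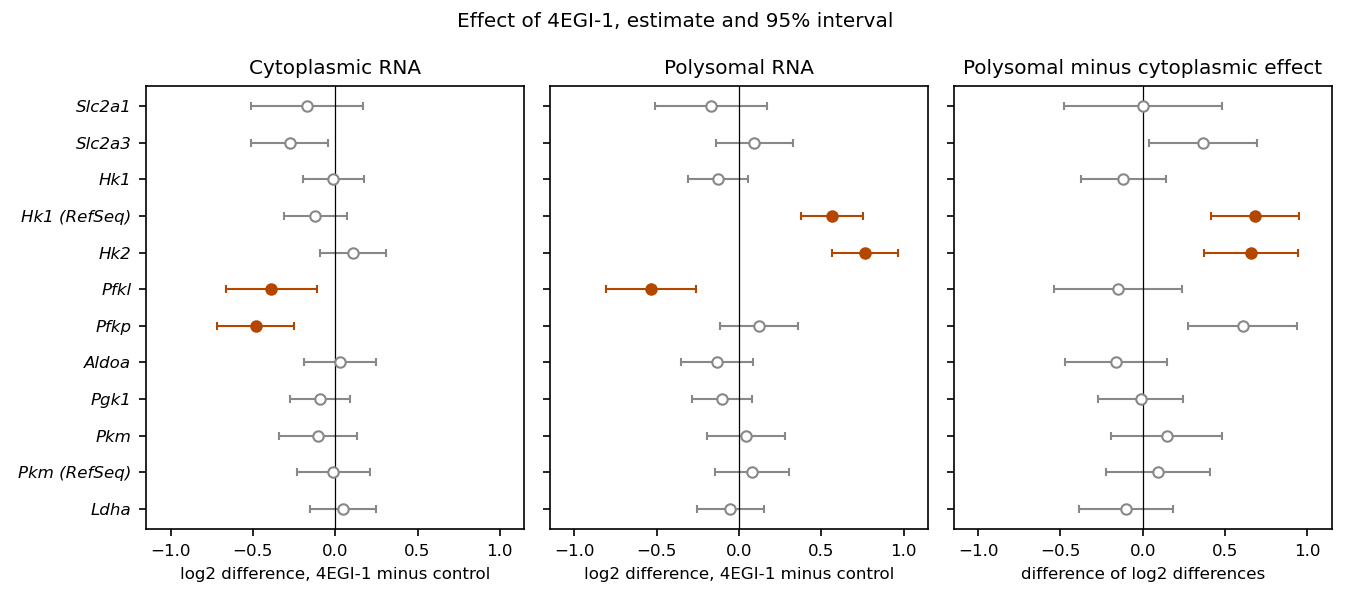
Log2 change with 4EGI-1 (4EGI-1 minus control, horizontal axis, with 95% confidence intervals from the fit) of each gene in cytoplasmic and in polysomal RNA and the difference of both effects; filled orange points passed limma at an adjusted p of 0.05 and open points did not. Hk2 and the RefSeq-listed Hk1 probe set lie at 0.76 and 0.56 in polysomal RNA, and Pfkl lies at -0.54.

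Slc2a1 encodes GLUT1, the main basal glucose transporter of lymphocytes. Its log2 values were 10.64, 10.38 and 10.66 in the cytoplasmic control arrays and 10.25, 10.04 and 10.87 in the cytoplasmic 4EGI-1 arrays, which overlapped because the third treated array was the highest of all 6. In polysomal RNA it stood at 10.29, 10.23 and 10.36 in control and at 10.18, 9.97 and 10.22 after 4EGI-1, with no overlap. The change was -0.17 ± 0.16 (SE; 95% interval -0.51 to 0.17; limma adjusted p = 0.505) in cytoplasmic RNA and -0.17 ± 0.16 (-0.51 to 0.17; limma adjusted p = 0.501) in polysomal RNA, and neither passed. Without the third cytoplasmic 4EGI-1 array the cytoplasmic change was -0.42 and passed, at a limma adjusted p of 0.0128. These are bulk samples, in which fewer cells of a type and less RNA per cell cannot be told apart.

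Slc2a3 encodes GLUT3, a high-affinity glucose transporter. Its mean over the 12 arrays was 5.91, just under the filter level of 6.0, and its group means lay between 5.81 and 6.08. In cytoplasmic RNA it read 6.17, 6.14 and 5.93 in control and 5.63, 5.94 and 5.85 after 4EGI-1, groups that overlapped by 1 array. Fitted without the filter, its change was -0.28 ± 0.11 (cytoplasmic, limma adjusted p = 0.141) and 0.09 ± 0.11 (polysomal, 0.688). Neither transporter passed in either fraction. The Slc2a1 groups ran down from cytoplasmic control (10.56 ± 0.15, SD of 3 arrays) to cytoplasmic 4EGI-1 (10.39 ± 0.43). Polysomal control (10.29 ± 0.07) and polysomal 4EGI-1 (10.12 ± 0.14) came next in that order. No tested neighbours passed, though the polysomal groups did not overlap. The SE of the fit is pooled over all groups, cytoplasmic 4EGI-1 among them.

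Hk1 and Hk2 are the hexokinases that bind the outer mitochondrial membrane, Hk1 being the widely expressed form and Hk2 the inducible form of fast-growing cells. Their upstream windows are shown with that of Pfkl, because Hk2 and 1 of the 2 Hk1 probe sets rose in polysomal RNA while Pfkl fell; the Hk1 probe set chosen by the rule did not pass there. Each window is the 250 bases before the annotated start, from RefSeq on GRCm38.p6, read 5′ to 3′ on the gene's strand, here the minus strand for all 3. Capitals mark ACGTG on either strand (so also CACGT), the core of the hypoxia response element bound by Hif1a. The windows are chr10:62379909-62380158 (the first of 2 annotated Hk1 starts), chr6:82774455-82774704 (Hk2) and chr10:78009808-78010057 (Pfkl).
Hk1: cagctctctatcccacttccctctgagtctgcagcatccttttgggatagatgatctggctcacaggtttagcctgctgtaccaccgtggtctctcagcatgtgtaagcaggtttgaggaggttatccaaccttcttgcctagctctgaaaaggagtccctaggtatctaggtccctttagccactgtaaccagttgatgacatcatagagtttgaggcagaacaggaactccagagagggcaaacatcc
Hk2: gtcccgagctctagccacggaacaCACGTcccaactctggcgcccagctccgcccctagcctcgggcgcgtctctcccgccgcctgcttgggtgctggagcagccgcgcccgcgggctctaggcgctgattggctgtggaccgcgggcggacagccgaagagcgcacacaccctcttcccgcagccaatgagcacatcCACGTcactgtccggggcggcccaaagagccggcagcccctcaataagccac
Pfkl: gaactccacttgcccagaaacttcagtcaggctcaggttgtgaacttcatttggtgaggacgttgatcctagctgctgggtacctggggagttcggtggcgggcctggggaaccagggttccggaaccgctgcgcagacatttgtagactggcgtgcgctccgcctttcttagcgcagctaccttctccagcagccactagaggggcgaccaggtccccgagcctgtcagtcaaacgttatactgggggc

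The Hk2 window held 2 matches, and neither the Hk1 nor the Pfkl window held any. GGGCGG, the core of the GC box bound by Sp1, was found on either strand 3 times in the Hk2 window and not at all in the other two. The windows also differed in base composition, with a GC content of 49.6% for Hk1, 69.6% for Hk2 and 59.2% for Pfkl, beside a median of 52.4% over all windows. The window of the second Hk1 start, not shown, had 62.8% and held neither motif. A match describes letters in the window and is not a measured binding site.

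Hk2 had the smallest adjusted p of the 10 genes in polysomal RNA. In polysomal RNA it stood at 7.34, 7.42 and 7.34 in control and at 8.09, 8.09 and 8.22 after 4EGI-1, so every treated array lay above every control array. On the cytoplasmic arrays Hk2 read 8.33, 8.35 and 8.27 in control and 8.62, 8.21 and 8.45 after treatment, and these groups overlapped. The polysomal rise was 0.76 ± 0.09 (SE, n = 3 per group; 1.70-fold; limma adjusted p = 2.99e-05), and it passed in all 22 alternative settings. The cytoplasmic change was 0.11 ± 0.09 (95% interval -0.09 to 0.31; limma adjusted p = 0.487). The effects differed by 0.66 ± 0.13 (1.58-fold; limma adjusted p = 0.0132), a call that ended without the third polysomal 4EGI-1 array (0.0539).

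In control cells Hk2 was lower in polysomal than in cytoplasmic RNA, relative to the other RNAs of each fraction, by 0.95 ± 0.09 on the log2 scale (1.93-fold; limma adjusted p = 5.44e-06). In 4EGI-1 cells the gap was -0.29 ± 0.09 (1.22-fold; limma adjusted p = 0.0458), the arrays of both fractions overlapped, and the call was lost in 13 of 22 alternative settings, among them the omission of any polysomal array, of the first cytoplasmic control array or of cytoplasmic 4EGI-1 array 1 or 3. Ordered by level, the Hk2 groups ran from polysomal control (7.37 ± 0.04, SD of 3 arrays) through polysomal 4EGI-1 (8.13 ± 0.07) and cytoplasmic control (8.32 ± 0.04) to cytoplasmic 4EGI-1 (8.42 ± 0.21). Of the neighbours in that order, polysomal control and polysomal 4EGI-1 differed beyond their spread and both cytoplasmic groups did not, while polysomal 4EGI-1 against cytoplasmic control was not tested.

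**Figure D2:**
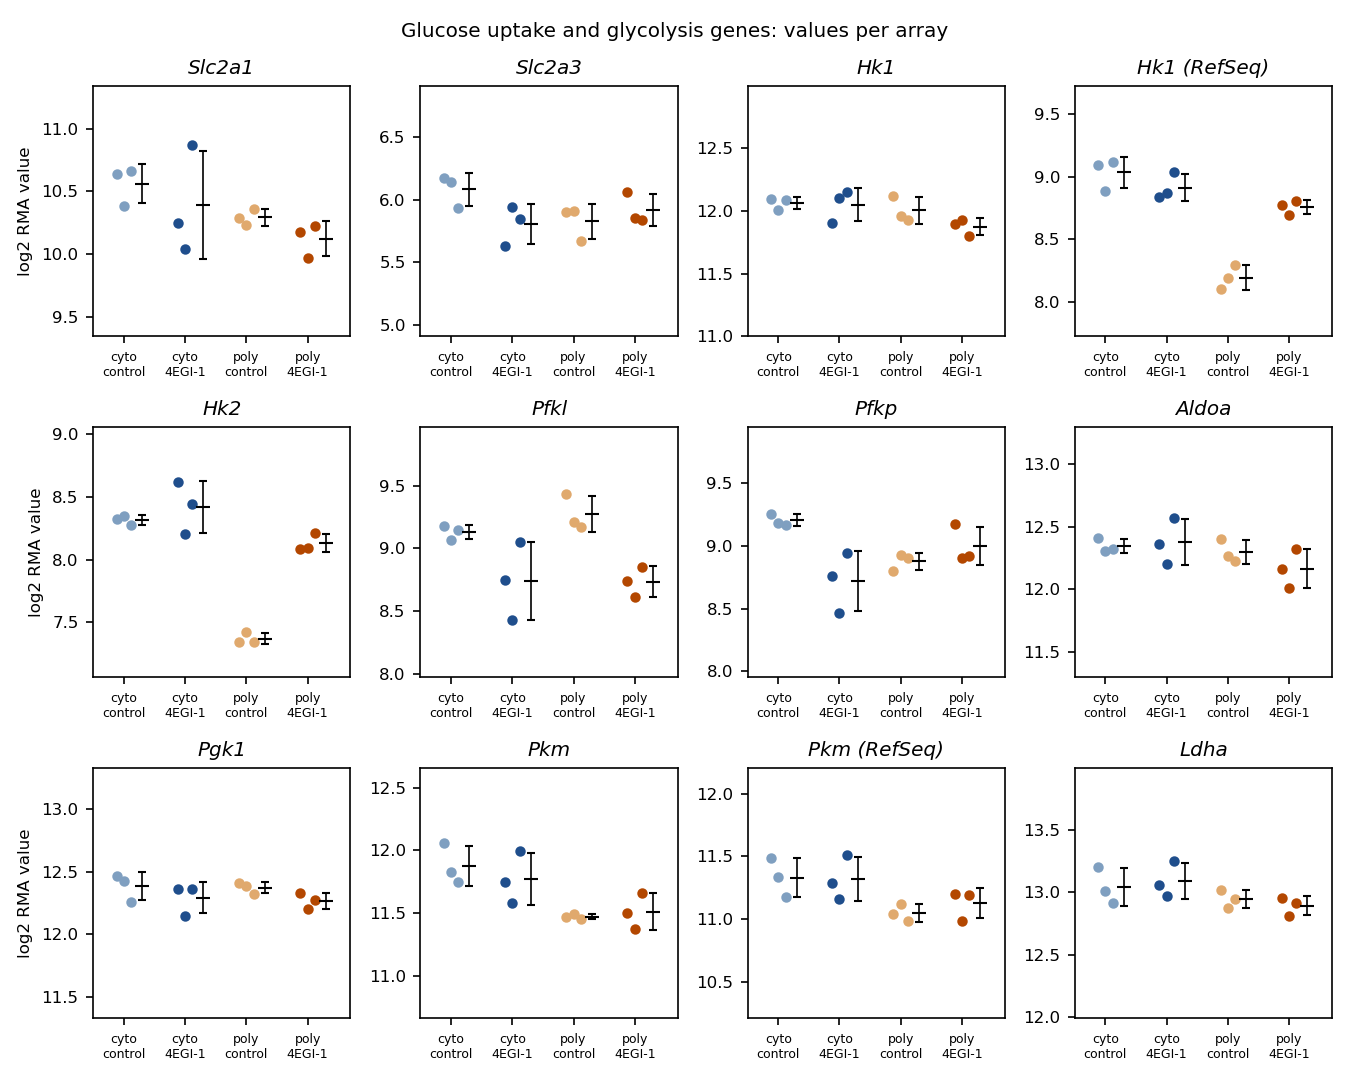
Log2 values (vertical axis, each panel spanning 2 log2 units) of the 10 genes on every array of the 4 groups, with a black bar for the mean ± SD of 3 arrays; the panels marked RefSeq show the second probe sets of Hk1 and Pkm. Hk2 runs from 7.37 in polysomal control to 8.42 in cytoplasmic 4EGI-1, and the third cytoplasmic 4EGI-1 array of Slc2a1 stands at 10.87.

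Hk1 had a pair of probe sets named for it alone, and they behaved differently. The brighter one, which the rule chose, is tied to Hk1 by 1 accession and lists no RefSeq mRNA. That same accession is listed by 15 further probe sets that name Hk1 together with Rpl17, a ribosomal protein gene of the large subunit, and which RNA the brighter probe set reports was not tested. It stood at 12.12, 11.96 and 11.93 in polysomal control and at 11.90, 11.93 and 11.80 after 4EGI-1, groups that overlapped, and changed by -0.13 ± 0.09 (limma adjusted p = 0.322). In cytoplasmic RNA it changed by -0.01 ± 0.09 (limma adjusted p = 0.948). The 15 probe sets that name both genes had a median polysomal change of -0.05.

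The other Hk1 probe set, which lists a RefSeq mRNA, was examined after seeing the data. It stood at 8.10, 8.19 and 8.29 in polysomal control and at 8.77, 8.69 and 8.80 after 4EGI-1, with a clear gap between the groups. Its cytoplasmic values were 9.10, 8.89 and 9.12 in control and 8.84, 8.87 and 9.04 after treatment, which overlapped. The polysomal rise was 0.56 ± 0.09 (SE, n = 3 per group; 1.48-fold; limma adjusted p = 0.000254), the cytoplasmic change was -0.12 ± 0.09 (95% interval -0.31 to 0.07; limma adjusted p = 0.393), and the effects differed by 0.68 ± 0.13 (1.61-fold; limma adjusted p = 0.00649). All these calls were the same in every alternative run on that probe set, with the difference of effects between 0.64 and 0.76.

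As for Hk2, the RefSeq-listed Hk1 probe set was lower in polysomal than in cytoplasmic RNA of control cells, by 0.84 ± 0.09 (1.79-fold; limma adjusted p = 8.97e-06). In 4EGI-1 cells the gap was -0.16 ± 0.09 and did not pass (limma adjusted p = 0.253). The group order was polysomal control (8.19 ± 0.10, SD of 3 arrays), polysomal 4EGI-1 (8.76 ± 0.06), cytoplasmic 4EGI-1 (8.91 ± 0.11) and cytoplasmic control (9.03 ± 0.13). Of these neighbours only the polysomal groups passed a test. The 4EGI-1 groups of both fractions did not pass, though their arrays did not overlap.

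Pfkl and Pfkp encode the liver-type and platelet-type subunits of phosphofructokinase, which assemble into mixed tetramers in many cells. In polysomal RNA Pfkl stood at 9.44, 9.21 and 9.17 in control and at 8.74, 8.61 and 8.85 after 4EGI-1, so all treated arrays lay lower. On the cytoplasmic arrays Pfkl read 9.18, 9.07 and 9.14 in control and 8.75, 8.43 and 9.05 after treatment, again without overlap, though the third treated array lay close to the controls. The polysomal fall was -0.54 ± 0.13 (SE, n = 3 per group; 1.45-fold; limma adjusted p = 0.00581), and it passed in all 22 alternative settings. The cytoplasmic fall was -0.39 ± 0.13 (limma adjusted p = 0.0492), just past the threshold, and it was lost in 14 of 22 alternative settings, with adjusted p between 0.00306 and 0.218. Among the arrays left out singly, the cytoplasmic call was kept only without the second cytoplasmic control array or the third cytoplasmic 4EGI-1 array. The effects differed by -0.15 ± 0.18 (limma adjusted p = 0.811), which did not pass.

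Pfkp fell in cytoplasmic RNA and did not pass in polysomal RNA. Its cytoplasmic values stood at 9.26, 9.19 and 9.17 in control and at 8.76, 8.46 and 8.94 after 4EGI-1, with no overlap. In polysomal RNA it read 8.80, 8.93 and 8.90 in control and 9.18, 8.90 and 8.92 after treatment, where only the first treated array stood apart. The cytoplasmic fall was -0.48 ± 0.11 (SE, n = 3 per group; 1.40-fold; limma adjusted p = 0.00661), and it passed in all 22 alternative settings. The polysomal change was 0.12 ± 0.11 (95% interval -0.11 to 0.36; limma adjusted p = 0.484). The difference of effects was 0.61 ± 0.16 and narrowly missed the threshold (limma adjusted p = 0.0505), and it passed in 8 of 21 alternative settings, among them the omission of the second cytoplasmic control array (0.0458) or the third cytoplasmic 4EGI-1 array (0.00916), with adjusted p between 0.00916 and 0.148.

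In control cells Pfkp was lower in polysomal than in cytoplasmic RNA by 0.33 ± 0.11 (limma adjusted p = 0.0362), a call that was lost in 8 of 22 alternative settings, among them the omission of any control array. In 4EGI-1 cells its polysomal value was 0.28 ± 0.11 above the cytoplasmic one (limma adjusted p = 0.1), which did not pass, but did so in 2 of 22 alternative settings, at 0.38 with each array centred on its median (0.0448) and at 0.39 without the third cytoplasmic 4EGI-1 array (0.0276). Pfkl had no passed gap, with 0.14 in control cells (limma adjusted p = 0.453) and -0.01 in 4EGI-1 cells (limma adjusted p = 0.98). The Pfkl groups ran down from polysomal control (9.27 ± 0.15, SD of 3 arrays) and cytoplasmic control (9.13 ± 0.06), which did not differ beyond their spread, to cytoplasmic 4EGI-1 (8.74 ± 0.31) and polysomal 4EGI-1 (8.73 ± 0.12), which did not either. The Pfkp groups ran from cytoplasmic control (9.21 ± 0.05) through polysomal 4EGI-1 (9.0 ± 0.15) and polysomal control (8.88 ± 0.07), the last pair not differing beyond its spread, to cytoplasmic 4EGI-1 (8.72 ± 0.24).

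The later enzymes Aldoa, Pgk1, Pkm and Ldha did not pass in either treatment comparison. Aldoa, the aldolase that splits fructose bisphosphate, stood at 12.35 ± 0.06 and 12.38 ± 0.18 (SD of 3 arrays) in cytoplasmic control and 4EGI-1 and at 12.30 ± 0.09 and 12.16 ± 0.15 in polysomal control and 4EGI-1. Its 95% intervals ran from -0.19 to 0.25 in cytoplasmic and from -0.35 to 0.08 in polysomal RNA. Pgk1, which makes the first ATP of the pathway, had group means of 12.38 ± 0.11, 12.29 ± 0.13, 12.37 ± 0.04 and 12.27 ± 0.06 in the same order. Its intervals ran from -0.27 to 0.09 and from -0.29 to 0.08. Ldha, the lactate-forming dehydrogenase subunit, had group means of 13.04 ± 0.15, 13.09 ± 0.14, 12.95 ± 0.07 and 12.89 ± 0.07. Its intervals ran from -0.16 to 0.25 and from -0.26 to 0.15. All these bounds describe array signal under a spread pooled over the groups, and larger changes in RNA were not excluded. Mouse genomes carry many processed copies of glycolytic genes, and whether these probe sets also read such copies was not tested.

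Pkm encodes pyruvate kinase M, whose splice forms the gene-level probe sets do not separate. The brighter of its 2 probe sets, which lists no RefSeq mRNA, stood at 12.06, 11.83 and 11.75 in cytoplasmic control and at 11.75, 11.58 and 11.99 after 4EGI-1, groups that overlapped. In polysomal RNA it read 11.47, 11.49 and 11.45 in control and 11.50, 11.37 and 11.66 after treatment, and these overlapped as well. The changes were -0.10 ± 0.11 (limma adjusted p = 0.573) and 0.04 ± 0.11 (95% interval -0.20 to 0.28; limma adjusted p = 0.851). The probe set that lists a RefSeq mRNA changed by -0.01 ± 0.10 and 0.08 ± 0.10 (limma adjusted p = 0.654 for the latter). Neither probe set passed in either fraction.

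Set against cytoplasmic RNA, the polysomal RNA of control cells held 3 of the 9 tested genes at a lower level (Hk2, Pfkp and Pkm) and none at a higher one, where 29% of all tested genes passed (12.2% lower and 16.7% higher). Pkm was lower by 0.41 ± 0.11 (limma adjusted p = 0.0123), with every polysomal control array below every cytoplasmic one, and its RefSeq-listed probe set by 0.28 ± 0.10 (limma adjusted p = 0.0549), which did not pass. The Pkm call was lost in 3 of 22 alternative settings. Among them were centring of each array on its median (limma adjusted p = 0.055) and omission of the first cytoplasmic control array (0.0693). In 4EGI-1 cells 1 gene was lower, Hk2, where 16.7% of all tested genes passed (7.15% lower and 9.56% higher). The median difference of the 9 genes was -0.10 in control and -0.20 in 4EGI-1 cells, beside -0.02 and -0.01 for all genes.

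**Figure D3:**
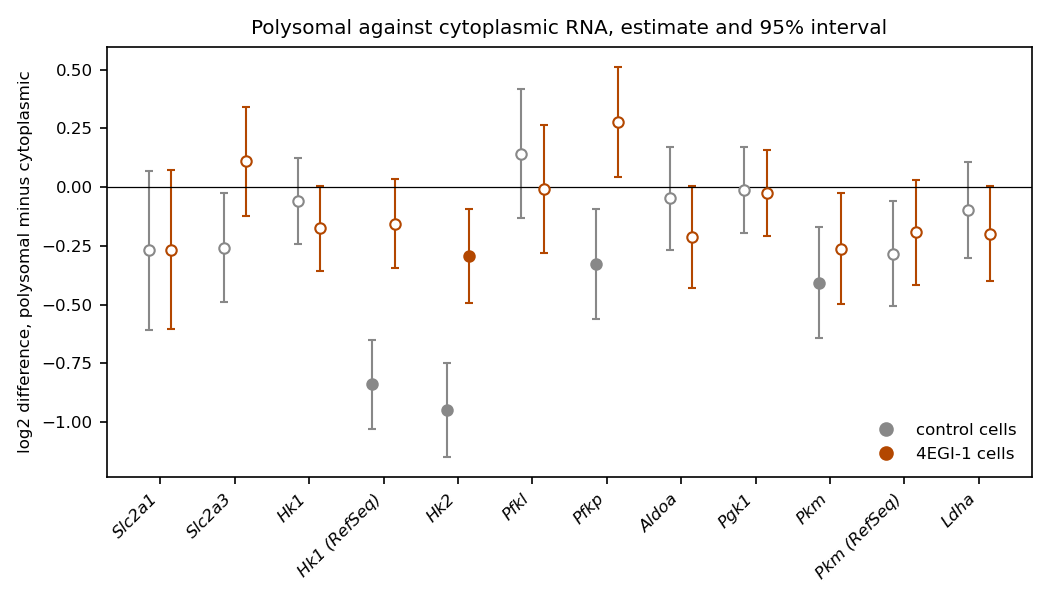
Polysomal minus cytoplasmic log2 value of each gene (vertical axis, with 95% confidence intervals from the fit) in control cells (grey) and in 4EGI-1 cells (orange). Filled points passed limma at an adjusted p of 0.05. Hk2 moves from -0.95 in control to -0.29 in 4EGI-1 cells, the RefSeq-listed Hk1 probe set from -0.84 to -0.16, and Pfkp from -0.33 to 0.28.

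Upstream windows were available for 9 of the 10 genes, with 14 annotated starts in all. ACGTG occurred on either strand in 7 of the 14 windows, from 6 of the 9 genes (Slc2a1, Hk2, Aldoa, Pgk1, Pkm and Ldha), against 16.6% of all 32851 windows of this length. The first Ldha window held 5 matches, the most of the 14, and was the only one with CACGTG, the E-box bound by Myc, which occurs in 6.02% of all windows. CACGTG reads the same on both strands and so counts as an ACGTG match on each, which makes 4 of those 5 matches the strands of 2 places. GGGCGG occurred in 8 windows from 7 genes, both overlapping Aldoa windows among them, against 32.7% of all windows. All member windows but the first Hk1 and Aldoa windows had a GC content above the median of all windows, and the part of base composition in these shares was not tested. Of the 3 genes that rose or fell under the rule, Hk2 had ACGTG and Pfkl and Pfkp had not. The other genes with ACGTG (Slc2a1, Aldoa, Pgk1, Pkm and Ldha) passed in neither treatment comparison. A link between motif and change was not tested.

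Other glycolytic enzymes, a list of 20 genes with 15 named and 11 tested, rose in 2 and fell in 2 in each fraction, with medians of -0.10 in cytoplasmic and 0.0001 in polysomal RNA, and none passed in the difference of effects. These are 4 of 11 genes in each fraction, where 17.8% of all tested genes passed in cytoplasmic and 25.2% in polysomal RNA. Adpgk, an ADP-dependent glucokinase, rose by 0.33 ± 0.07 in the cytoplasm (limma adjusted p = 0.00342) and by 0.28 ± 0.07 on polysomes (0.00687). Bpgm, which makes 2,3-bisphosphoglycerate, changed by -0.32 ± 0.08 (limma adjusted p = 0.0109) and -0.41 ± 0.08 (limma adjusted p = 0.00123). Tpi1, triose phosphate isomerase, changed by -0.37 ± 0.10 (limma adjusted p = 0.0203) and -0.33 ± 0.10 (limma adjusted p = 0.0272), calls that were lost in 4 and 7 of 22 alternative settings.

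Regulators of glycolysis (13 genes, 11 tested) rose in 1 and fell in 2 in cytoplasmic RNA and rose in 1 in polysomal RNA, with medians of -0.20 and -0.03, where 17.8% and 25.2% of all tested genes passed. The riser in both was Pfkfb2, whose product makes fructose-2,6-bisphosphate, an activator of phosphofructokinase. It rose by 0.59 ± 0.08 (limma adjusted p = 8.05e-05) in cytoplasmic and by 0.47 ± 0.08 (limma adjusted p = 0.000285) in polysomal RNA. Fbp1, the gluconeogenic fructose bisphosphatase, changed by -0.36 in cytoplasmic RNA (limma adjusted p = 0.0249), a call lost in 5 of 22 settings. Of the other hexose transporters (9 genes, 6 tested), 1 fell in polysomal RNA, Slc2a4 with -0.24 ± 0.08 (limma adjusted p = 0.0377; lost in 8 of 21 settings), and none passed in cytoplasmic RNA, beside the same shares of all genes.

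Genes of lactate and pyruvate handling (17 genes, 14 tested) fell in 3 in each fraction and none rose, with medians of -0.13 and -0.12. That is 3 of 14 genes in each, near the 17.8% and 25.2% of all tested genes that passed. They include the pyruvate dehydrogenase kinases, which switch off the entry of pyruvate into the mitochondrial cycle. Pdk1 changed by -0.43 ± 0.08 in cytoplasmic (limma adjusted p = 0.00153) and -0.61 ± 0.08 in polysomal RNA (limma adjusted p = 4.62e-05). Pdk3 changed by -0.46 ± 0.09 in both (limma adjusted p = 0.00237 and 0.00149). Pdk2 passed in cytoplasmic RNA alone (-0.31, limma adjusted p = 0.0352), and Mpc1, a subunit of the mitochondrial pyruvate carrier, in polysomal RNA alone (-0.31, limma adjusted p = 0.0265), without a passed test of the difference for either. These last calls were lost in 7 and 4 of 22 settings.

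The pentose phosphate pathway, which branches off at glucose-6-phosphate, had 9 of 10 genes tested. In cytoplasmic RNA 3 fell and none rose, and in polysomal RNA 2 fell and 1 rose, with medians of -0.12 and -0.17. That is 3 of 9 genes in each, beside 17.8% and 25.2% of all tested genes. Rpia, ribose-5-phosphate isomerase, changed by -0.67 ± 0.12 (limma adjusted p = 0.00147) and -0.40 ± 0.12 (limma adjusted p = 0.0241; lost in 4 of 22 settings). Rpe, the epimerase of the same branch, changed by -0.45 ± 0.10 in polysomal RNA (limma adjusted p = 0.00271). Tkt, transketolase, rose in polysomal RNA by 0.49 ± 0.12 (limma adjusted p = 0.00753) and, like Hk2, stood lower in polysomal than in cytoplasmic RNA of control cells, by 0.57 (limma adjusted p = 0.00275). Its cytoplasmic change was -0.12 ± 0.12 (limma adjusted p = 0.547). Unlike for Hk2, the difference of effects, 0.62 ± 0.17, did not pass (limma adjusted p = 0.0807).

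**Figure D4:**
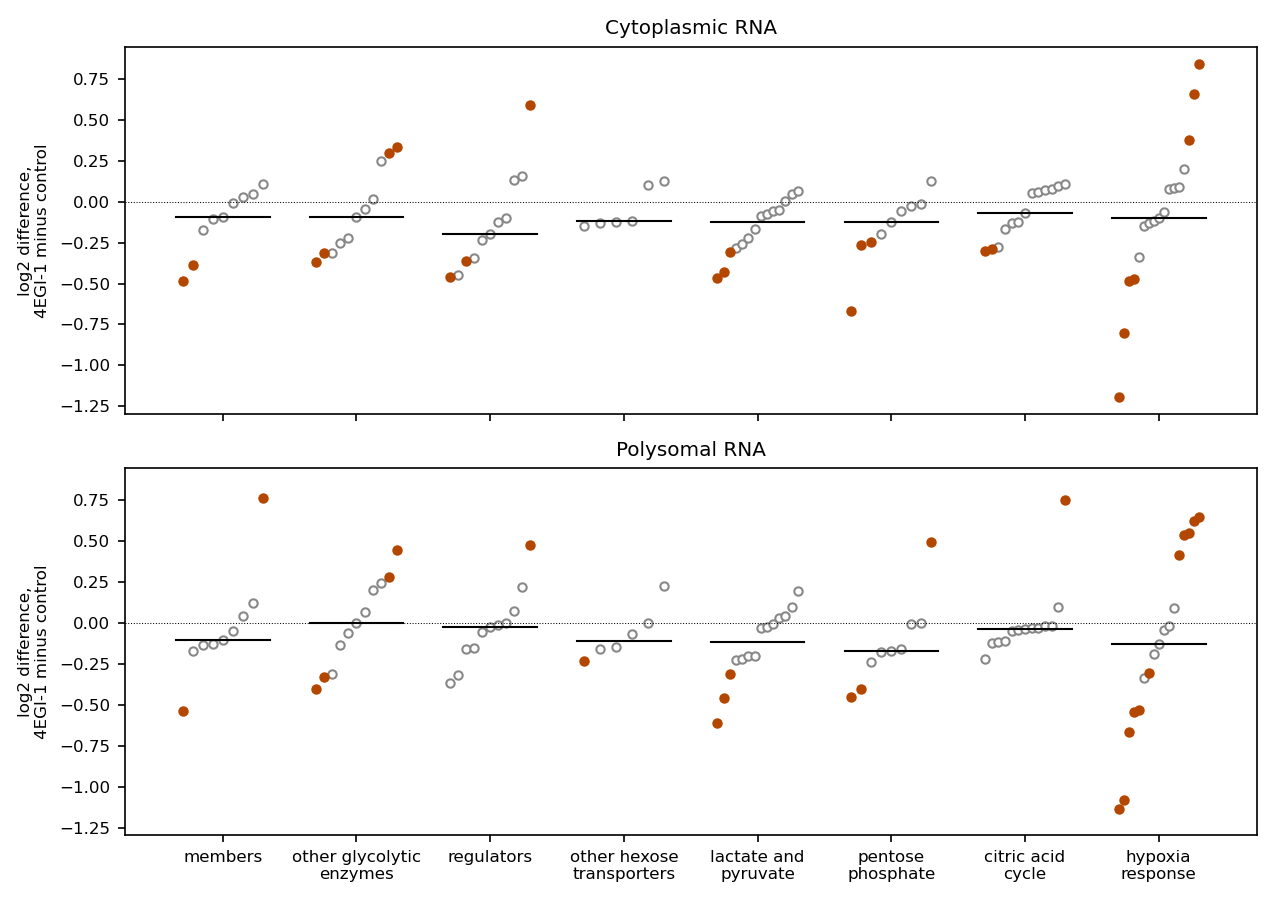
Log2 change with 4EGI-1 (4EGI-1 minus control) of every tested gene of the 10-gene group and of the pathway lists, in cytoplasmic and in polysomal RNA; filled orange points passed limma at an adjusted p of 0.05, open points did not, and black lines are list medians. The glycolysis medians are -0.09 and -0.11, and Hk2 at 0.76 lies highest of the 9 genes in polysomal RNA.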

How the data were processed

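RNA was measured on 12 single-colour arrays, 3 in each of 4 groups taken from the labels. The authors deposited log2 values made with RMA, per the submitters' processing notes, and neither its version nor whether all arrays were normalised together is given in the sources used here. Of 34760 probe sets, 21640 had 1 symbol in the platform annotation, 1321 several and 11799 none. Symbols were updated through RefSeq (GRCm38.p6), which held 19855 of 19937. For the 954 genes with several probe sets the one with the highest mean was used, and a filter at the 40th percentile of the probe sets' means (6.0) left out 6757 genes.

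Group means were fitted with limma 3.58.1 in R 4.3.3 (lmFit, eBayes; 8 residual and 6.83 prior degrees of freedom), with Benjamini-Hochberg adjustment over 13180 genes and a threshold of 0.05. The fit was tested on simulated data. No arrays held identical values. Precision is limited by the number of arrays. The genes and lists were chosen with earlier results of these data known. All 10 genes are named, up to 4 genes with the smallest p per pathway list among those that passed a treatment comparison or the difference of effects, and for Slc2a1 and Ldha the 3 genes most alike in pattern. Alternatives were the filter, the normalization, the choice of probe set, the variance model, the arrays fitted, the replicate number as a block and each array left out. Same-numbered arrays were compared by the correlation of their deviations from group means.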

Additional observations from a re-analysis of the deposited data

Results flagged for a closer look

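The effect of 4EGI-1 differed between the fractions for Hk2 by a test of the difference itself, with 0.66 on the log2 scale (polysomal minus cytoplasmic effect; limma adjusted p = 0.0132). The same test passed for the RefSeq-listed probe set of Hk1, with 0.68 (limma adjusted p = 0.00649), a probe set examined after seeing the data. Groups of 3 arrays were too small for the test of a single outlying sample.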

How the results depend on the processing

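The polysomal rise of Hk2, the polysomal fall of Pfkl and the cytoplasmic fall of Pfkp kept their direction and passed in all 22 alternatives. Of the 9 tested genes, the number past the threshold in polysomal RNA stayed between 2 and 3. In cytoplasmic RNA it was 1 without the filter, with centring of each array, with array weights and with only the 6 arrays compared, and 1 to 3 with 1 array left out. The difference of effects passed in 2 genes under a stricter filter, quantile normalization, the mean of probe sets, a variance trend, array weights and RefSeq-listed probe sets, and in 0 to 2 with 1 array left out. With the replicate number as a block it passed in 2 genes as well, Hk2 and Pfkp. Same-numbered arrays correlated between -0.22 and 0.56 in their deviations. Most arrays, though not all, correlated best with their own number. Between cytoplasmic control and 4EGI-1 this held for numbers 2 (0.56) and 3 (0.52) and not for number 1 (-0.22). Whether the numbers pair the arrays was therefore not settled. For polysomal against cytoplasmic RNA, 1 gene passed in control cells with centring (1 to 4 with 1 array left out), and 0 in 4EGI-1 cells without the filter, with a variance trend or with only 6 arrays (0 to 1). With centring 1 gene passed in 4EGI-1 cells as in the fit reported, but it was Pfkp, higher in polysomal RNA by 0.38 (limma adjusted p = 0.0448), and no longer Hk2, at -0.19 (0.188). Signs turned as follows, the cause being untested. Quantile normalization gave 0.021 for cytoplasmic Hk1, -0.018 and 0.0011 for the difference of effects of Slc2a1 and Pgk1, 0.0097 and 0.055 for polysomal minus cytoplasmic Aldoa and Pgk1 in control cells and 0.056 for Pgk1 in 4EGI-1 cells. Centring gave 0.0083 for the difference of effects of Pgk1, 0.019, 0.030 and 0.064 for polysomal minus cytoplasmic Hk1, Aldoa and Pgk1 in control cells, and 0.090 and 0.073 for Pfkl and Pgk1 in 4EGI-1 cells. The mean of probe sets gave 0.22 and 0.28 for the polysomal change and the difference of effects of Hk1, which were 0.56 and 0.68 with the RefSeq-listed probe set, and -0.13 for polysomal minus cytoplasmic Higd1a in 4EGI-1 cells. With 1 array left out, cytoplasmic changes ran from -0.059 to 0.064 for Hk1, -0.030 to 0.13 for Ldha, -0.066 to 0.12 for Aldoa and -0.11 to 0.069 for RefSeq-listed Pkm, and the polysomal change of Pkm from -0.035 to 0.11. The difference of effects ran from -0.17 to 0.25 for Slc2a1, -0.085 to 0.051 for Pgk1 and -0.31 to 0.0049 for Pfkl, and polysomal minus cytoplasmic values from -0.076 to 0.028 for Pgk1 in control cells, and from -0.097 to 0.011 for Pgk1 and -0.16 to 0.15 for Pfkl in 4EGI-1 cells. With array weights, which rated the cytoplasmic arrays at 0.616 and the polysomal at 1.62, list counts past the threshold went from 4 to 1 in cytoplasmic and from 4 to 7 in polysomal RNA for other glycolytic enzymes, from 3 to 1 and from 1 to 3 for regulators, from 3 to 1 and from 3 to 5 for the pentose phosphate pathway, from 2 to 0 and from 1 to 2 for the tricarboxylic acid cycle, and in polysomal RNA from 3 to 7 for lactate and pyruvate handling and from 1 to 2 for hexose transporters. Leaving out 1 array moved the cytoplasmic count of lactate and pyruvate genes between 2 and 6 from 3.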

Other observations

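Genes induced by hypoxia, many of them targets of Hif1a as several glycolytic genes are, moved in both directions. Of 17 tested genes on a list of 18, 3 rose and 4 fell in cytoplasmic RNA and 5 rose and 6 fell in polysomal RNA, with medians of -0.10 and -0.13. That is 7 of 17 and 11 of 17 genes, beside 17.8% of all tested genes that passed in cytoplasmic and 25.2% in polysomal RNA. Ak4, a mitochondrial adenylate kinase, changed by -1.19 ± 0.11 (SE; limma adjusted p = 4e-06) in cytoplasmic and -1.08 ± 0.11 (limma adjusted p = 4.64e-06) in polysomal RNA. Bnip3, a mitophagy receptor, changed by -0.80 ± 0.15 (limma adjusted p = 0.0019) and -1.14 ± 0.15 (limma adjusted p = 6.24e-05). P4ha2, a collagen prolyl hydroxylase subunit, rose by 0.38 ± 0.08 (limma adjusted p = 0.00303) and 0.55 ± 0.08 (limma adjusted p = 9.07e-05). Higd1a, a mitochondrial respiratory chain factor, had a polysomal change of -0.67 ± 0.07 (limma adjusted p = 9.08e-06) beside a cytoplasmic one of -0.15 (0.176), and its effects differed by -0.52 ± 0.10 (limma adjusted p = 0.0109). On this list the difference of effects passed in 1 gene in each direction, where 2.92% of all tested genes passed. Genes are named by smallest p, and the largest rises on the list were 0.84 in cytoplasmic and 0.65 in polysomal RNA.

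Of the enzymes of the tricarboxylic acid cycle (13 of 14 tested), 2 fell in cytoplasmic RNA and 1 rose in polysomal RNA, with medians of -0.07 and -0.04. The cytoplasmic count lay near the share of all tested genes that passed (17.8%), and the polysomal count below it (25.2%). With 1 array left out the cytoplasmic count ran from 0 to 3. The riser was Ogdh, a subunit of the oxoglutarate dehydrogenase complex, with 0.75 ± 0.10 (limma adjusted p = 5.02e-05) in polysomal and 0.11 ± 0.10 (limma adjusted p = 0.498) in cytoplasmic RNA. The effects differed by 0.64 ± 0.14 (limma adjusted p = 0.0203), a call lost when any of 6 arrays was left out (up to 0.0726). In control cells Ogdh was lower in polysomal than in cytoplasmic RNA by 0.84 (limma adjusted p = 2.29e-05). Fh1, fumarase, changed by -0.29 in cytoplasmic RNA (limma adjusted p = 0.022), a call lost in 5 of 22 settings.

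The genes most like Slc2a1 in pattern over the 12 arrays were Dpp9, Telo2 and Rgs19, with Pearson correlations of 0.96, 0.95 and 0.95, and those most like Ldha were Sptlc1, Jcad and Ulk3, with 0.91, 0.89 and 0.88. These values describe 12 arrays that share 4 group means.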
